A study of Mus musculus with 2 samples.

Results

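The regions described here are places inside genes where Hnf4a was mapped in both replicates of iHepCs, hepatocyte-like cells made from mouse embryonic fibroblasts. Peak summits of both replicates on chromosomes 1 to 19 and X were pooled, and neighbours at most 100 bp apart were chained into regions. Of the 9179 regions that held a summit of each replicate, 3679 had their midpoint inside a protein-coding gene and over 1 kb from the ends of every protein-coding gene. These are called interior regions below, and the sequence that meets the same conditions is called gene interior. A further 1701 shared regions lay within 1 kb of a gene end, and 3799 lay outside genes. The regions were chosen by the positions of the summits in both replicates, so counts, densities and scores below describe them and no test was run.

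The study measured 1 group with 2 samples, described in the series as biological replicates. The cells came from C57BL/6J embryos, are labelled wild type and as fibroblasts, and received Foxa2 and Hnf4a from retroviral vectors, so an introduced copy of the mapped factor was present. They were kept in a hepatocyte medium with 100 nM dexamethasone, 20 ng/ml hepatocyte growth factor and 20 ng/ml epidermal growth factor. Hnf4a was mapped by ChIL-seq, in which a DNA probe on the antibody guides a transposase to nearby chromatin and the tagged DNA is transcribed inside the fixed cells. Peak names give both libraries 1 lot number, and no control samples were analysed here. How many summits mark Hnf4a binding is therefore unknown.

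Hnf4a is a nuclear receptor that binds DNA as a homodimer and is needed for much of the hepatocyte's gene expression. Many of the sites that transcription factors occupy lie in introns, where enhancers and alternative promoters can control the host gene or a neighbour. Position inside a gene therefore does not name the target, and it was not tested whether any gene named below responds to Hnf4a. Exons and introns were not distinguished here, because the gene table used gives only a start and an end for each gene.

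One group of interior regions lay where transcription is annotated to begin inside a longer gene, and their sequences can be shown. The RefSeq start table (GRCm38.p6) gives for each start a window of 300 bases, 250 before the start and 50 from it on, and the midpoints of 114 interior regions fell in such a window. The stretches below surround the midpoints of the 6 such regions that ranked best in the replicate where they ranked lower, together with one at Tank that holds no GC box and was chosen after its values were seen. They are written 5′ to 3′ on the strand of the gene and cut at the start site. Capitals mark matches on either strand. Those shown are GGGCGG, the GC box that Sp1-type factors bind. They also include CCAAT, the box bound by NF-Y, and the CEBP motif of TTGC, 2 free bases and AA.
Rps6ka2, chr17:7169871-7169991, plus strand: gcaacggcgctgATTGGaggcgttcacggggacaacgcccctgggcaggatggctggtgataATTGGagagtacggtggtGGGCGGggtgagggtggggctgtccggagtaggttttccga
Add3, chr19:53142520-53142640, plus strand: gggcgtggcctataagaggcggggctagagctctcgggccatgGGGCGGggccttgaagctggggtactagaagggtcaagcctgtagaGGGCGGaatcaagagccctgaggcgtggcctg
Aph1b, chr9:66795424-66795521, minus strand: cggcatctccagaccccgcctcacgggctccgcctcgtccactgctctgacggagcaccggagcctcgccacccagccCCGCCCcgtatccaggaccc
Nadk, chr4:155563565-155563666, plus strand: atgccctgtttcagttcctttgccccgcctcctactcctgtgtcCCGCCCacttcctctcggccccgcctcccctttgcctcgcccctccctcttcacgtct
Slc27a1, chr8:71570485-71570593, plus strand: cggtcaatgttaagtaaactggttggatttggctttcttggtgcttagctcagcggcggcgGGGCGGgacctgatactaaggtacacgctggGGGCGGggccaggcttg
Clybl, chr14:122181459-122181579, plus strand: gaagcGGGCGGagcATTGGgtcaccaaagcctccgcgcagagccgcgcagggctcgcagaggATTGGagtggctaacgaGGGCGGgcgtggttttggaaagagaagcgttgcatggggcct
Tank, chr2:61592854-61592974, plus strand: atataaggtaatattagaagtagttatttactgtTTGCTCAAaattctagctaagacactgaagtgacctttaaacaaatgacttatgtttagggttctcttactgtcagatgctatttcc

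Each summit carries the −log10 q-value that the authors' peak caller gave it, which is called its score here. At the internal start of Rps6ka2, a kinase of the RSK family, the score was 33.3 in replicate 1 and 34.9 in replicate 2. The midpoint of that region lay 184 bases before the start. At Add3, which encodes an adducin of the membrane skeleton, the scores were 25.4 and 27.5. The region at Aph1b, a subunit of gamma-secretase, scored 22.8 and 23.0. In these 3 genes the replicates gave nearly the same score. At Nadk, which makes NADP from NAD, replicate 1 was higher, at 34.5 against 21.6. Slc27a1, a fatty acid transport protein, gave 27.6 and 20.8, and Clybl, a mitochondrial lyase, gave 21.2 and 22.8. The region at Tank, an adaptor of NF-kappa-B signalling, scored 24.8 and 18.1. In the first 6 of these stretches a GC box was present, and none of the 7 held either of the HNF4 forms searched (CAAAGTCCA and CAAAGTTCA). Over all 124 windows that held such a midpoint, no stretch around it held either form. The 7 were chosen by rank or by hand, so their GC boxes do not give the share over all stretches.

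Of all shared regions, 40.1% were interior (exact 95% binomial interval 39.1% to 41.1%, counting error only). Gene interior came to 986.5 Mb, a length equal to 38.5% of the 2561 Mb spanned by the summits. Of single summits, 41.3% in replicate 1 and 41.9% in replicate 2 were interior, or 41.6% ± 0.434 (SD, n = 2). The interior share of shared regions and of each replicate's summits was thus slightly above the share of the sequence. Interior regions had a density of 3.73 per Mb, and single summits had 8.90 per Mb in replicate 1 and 10.2 per Mb in replicate 2. The read depth of the libraries is unknown from summit lists. All 3679 regions consisted of exactly 1 summit of each replicate, with a median span of 33 bp from one to the other.

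Density depended on the length of the host gene, and the longest genes were the sparsest. Genes under 20 kb held 4.12 interior regions per Mb of their interior, genes of 20 to 50 kb held 4.15, and genes of 50 to 100 kb held 4.50. The highest density was in genes of 100 to 200 kb, at 4.73 per Mb. It then fell to 3.49 per Mb in genes of 200 to 500 kb and to 1.87 per Mb in genes of 500 kb or more. Each replicate on its own had the same low end: in genes of 500 kb or more the density of summits was 4.67 per Mb in replicate 1 and 5.48 in replicate 2, against 10.9 and 12.5 in genes of 100 to 200 kb. These longest genes made up 19.2% of all gene interior and held 9.65% of the interior regions. Because long genes offer more sequence, the share of genes with at least 1 interior region still rose with length, from 2.9% of 9166 genes under 20 kb to 10.8%, 23.7%, 37.3% and 48.4% in the next classes and to 55.5% of 227 genes of 500 kb or more.

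**Figure D1:**
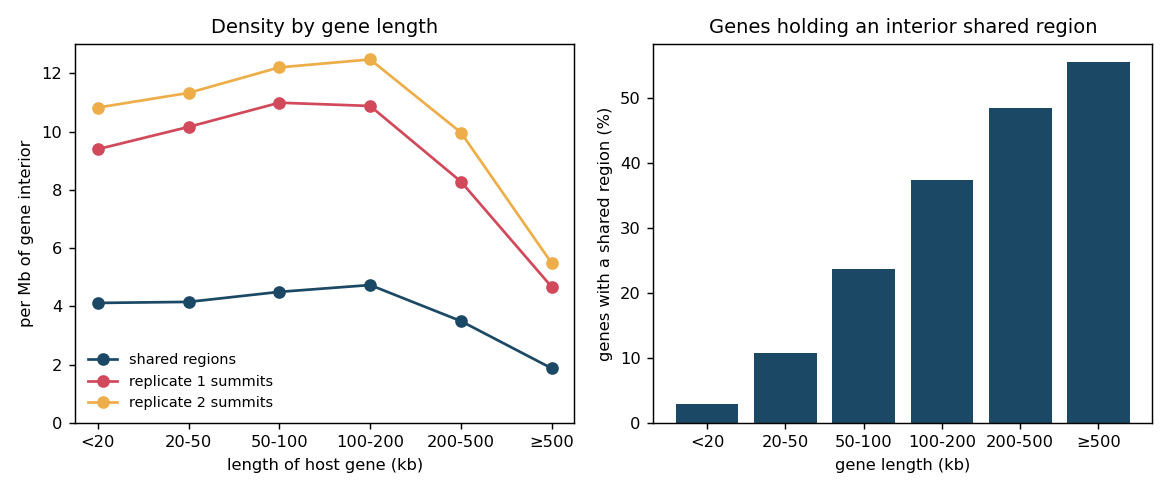
Left, interior shared regions and single summits of each replicate per Mb of gene interior, by length of the host gene in kb. Right, percentage of genes of each length that hold an interior shared region; the density falls from 4.73 to 1.87 per Mb between genes of 100 to 200 kb and genes of 500 kb or more, while the share of genes rises to 55.5%.

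The sparse long genes included many that encode synaptic and neuronal adhesion proteins. The 58 genes of 500 kb or more on a list of such genes held 0.894 regions per Mb. The other 169 genes of that length held 2.37 per Mb, so both sets lay below the 3.73 of all interior. The 58 had 65.97 Mb of interior and the 169 had 125.8 Mb, so the listed genes were longer on average. The part of length in this difference was not tested, and the list was made with earlier results of these data known. Among the 59 genes of 1 Mb or longer, 25 held no interior region, and the density over all of them was 1.05 per Mb. The longest gene without one was Csmd1, a large transmembrane complement-regulatory protein, with 1643 kb, 1 summit in replicate 1 and 2 in replicate 2. Robo2, an axon guidance receptor, spans 1555 kb and held 1 and 5 summits, none of them shared. Rbfox1, a splicing regulator of neurons and muscle, spans 1528 kb and held 3 and 4. Long genes were not uniformly sparse. Rad51b, a gene of homologous recombination that spans 551 kb, held 15 interior regions or 27.3 per Mb, and Lama2, the laminin alpha 2 chain, held 8 in 636 kb or 12.6 per Mb.

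Along the gene, interior regions were denser toward the 5′ end. Strand was available for 17274 of the 21631 protein-coding genes, and 2943 interior regions had a host with a strand. With the gene divided into 10 equal parts, the first part held 5.10 regions per Mb of interior and the last held 2.77. The 7 parts nearest the 5′ end ranged from 3.72 to 5.10 per Mb, and each of the last 3 parts was below them, at 2.89, 3.03 and 2.77. Split at its midpoint, the gene held 1647 regions on the 5′ side, or 4.25 per Mb, and 1296 on the 3′ side, or 3.35 per Mb. The ratio of these densities was 1.27 for shared regions, 1.24 for the summits of replicate 1 and 1.19 for those of replicate 2. Scores did not follow the density: the median was 9.82 in replicate 1 and 9.12 in replicate 2 on the 5′ side, against 9.93 and 9.53 on the 3′ side.

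Close to the 1 kb limit, the gene start and the gene end differed more. Sequence 1 to 2 kb from the 5′ end held 8.37 regions per Mb, and sequence 1 to 2 kb from the 3′ end held 2.86. For the 5′ side the density fell to 5.33 per Mb at 2 to 5 kb and to 4.38 at 5 to 10 kb. Both replicates were dense next to the start, with 20.2 summits per Mb in replicate 1 and 22.4 in replicate 2 at 1 to 2 kb. Of the 118 interior regions 1 to 2 kb from the 5′ end, 33, or 28.0%, lay within 250 bp of another annotated start, and none of the 40 at the 3′ end did, which allows a share of up to 7.50%. Without regard to strand, interior more than 100 kb from every gene end was the sparsest class of distance, at 2.27 regions per Mb. Classes from 2 to 100 kb lay between 3.71 and 4.28 per Mb.

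The 2 regions just inside the 1 kb limit were in Cnot6l, a deadenylase gene, 1012 bp from the nearest gene end with scores of 7.42 and 10.3, and in Lmnb1, the lamin B1 gene, 1014 bp from it with scores of 4.38 and 5.57. Just outside lay regions in the cyclin gene Ccnd2 at 999 bp, with 11.2 and 13.2, and in the sarcalumenin gene Srl at 1000 bp, with 18.8 and 19.4. The regions farthest from any gene end were in Cntnap2, a neurexin-family adhesion protein with 2241 kb, at 885 kb and 779 kb from the nearest end. Scores of the first were 36.7 and 19.2, in the order of the replicates, and scores of the second were 12.9 and 5.90. A region in Fhit, which encodes a diadenosine triphosphatase, lay 766 kb from the nearest end and scored 5.28 and 6.63.

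The strongest rise in density was at annotated starts inside genes. The start table lists 6671 starts in gene interior, of which 3881 belong to a protein-coding gene and 2790 to a long noncoding RNA; chromosome 18 is absent from that table and was left out here. Within 250 bp of such a start, interior regions reached 45.8 per Mb (139 regions). The density was 8.31 per Mb from there to 1000 bp, 4.92 at 1 to 5 kb, 5.01 at 5 to 20 kb and 3.29 beyond 20 kb. The replicates singly gave 93.6 and 91.6 summits per Mb within 250 bp, against 8.01 and 9.30 beyond 20 kb, so the rise was present in both. Starts of the 2 kinds differed: 129 of the protein-coding starts (3.32%) and 24 of the noncoding starts (0.860%) had an interior region within 250 bp. Among starts within 1 kb of a gene end, 1153 of 18665 (6.18%) had a shared region that close. Even so, internal starts accounted for 3.92% of the interior regions on the chromosomes with a start list, and 74.6% lay more than 20 kb from any of them.

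**Figure D2:**
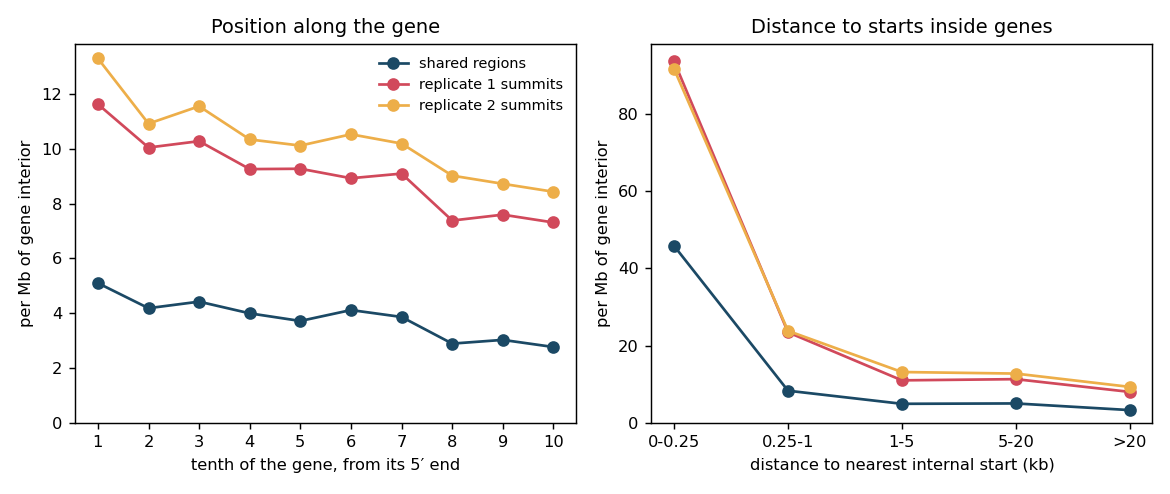
Left, regions and summits per Mb of gene interior in 10 equal parts of the gene from its 5′ end, for hosts with a known strand. Right, the same densities by distance in kb to the nearest annotated start inside genes; shared regions fall from 45.8 per Mb within 250 bp to 3.29 per Mb beyond 20 kb.

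The windows at internal starts that held a shared region were richer in G and C than those that did not. Their median GC content was 60.7% in 127 windows, against 52.0% in 6544 internal windows without a region and 53.0% in all 32585 start windows. They held a median of 20 CpG dinucleotides, against 6 and 7. The window sets also differed in kind of start. Protein-coding starts gave 115 of the 127 windows, with a median GC content of 61%, and noncoding starts gave 12, with 52.7%. Of all internal starts, 3881 of 6671 were protein-coding. The part of the kind of start in the GC difference was not tested. The GC box GGGCGG, read on both strands, was present in 61.4% of the windows with a region. The exact 95% binomial interval was 52.4% to 69.9%, counting windows as independent, although some overlap. The GC box was present in 27.9% of internal windows without a region and in 35.9% of all windows. The CCAAT box was present in 52.0%, 33.4% and 37.6%. Both shares were higher where a region was present, and G and C content moved with them. The part of GC content, or of the kind of start, in the motif shares was not tested. Windows at gene ends that held a shared region had the same median GC content of 60.7%, with a GC box in 77.6%. Those at gene ends without one had 57.3%, with a GC box in 47.3%.

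Motifs of single factor families were searched in the same windows. Either HNF4 form was present in 1 of the 127 windows with a region (0.787%), in 0.886% of internal windows without one and in 0.868% of all windows. The forkhead motif TGTTTAC, bound by Foxa2 and its relatives, was present in 3.94%, 3.65% and 3.67%. The CEBP motif TTGCNNAA gave 9.45%, 10.9% and 10.9%, and the TEAD motif GGAATG gave 14.96%, 16.1% and 14.6%. For the AP-1 motif TGANTCA the share was 12.6% (7.38% to 19.7%) with a region and 8.08% without. The interval of the first held the second, but some windows overlap around the same region, so this is no test. The motif letters were searched on both strands, each motif on its own, so that a base may count for more than one. A match describes the window and does not show that a factor bound there, and the windows cover only the regions at starts.

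The medians of interior scores were close to those of other shared regions. The median was 9.83 in replicate 1 (quartiles 6.98 and 14.6) and 9.36 in replicate 2 (6.67 and 14.1). Regions within 1 kb of a gene end had medians of 10.2 and 9.78, and those outside genes had 9.87 and 9.70. The highest scores were outside genes, at 1799 and 2028. Interior scores ran from 2.44 to 120 in replicate 1 and from 2.25 to 131 in replicate 2. The replicates' scores were correlated across the 3679 regions, with a Spearman correlation of 0.579, as a description of regions that share their libraries. In 86.4% of the regions the 2 scores were within 2-fold of each other. A score of 20 or more in both replicates was reached by 241 interior regions, 30 or more by 59, 50 or more by 9, and over 100 by 1, while 14.5% were under 5 in a replicate. Of interior summits, 41.9% in replicate 1 and 36.5% in replicate 2 belonged to a shared region, so most were found in 1 replicate only. At gene ends these shares were 46.6% in both, and outside genes they were 43.0% and 36.8%, close to those of the interior.

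**Figure D3:**
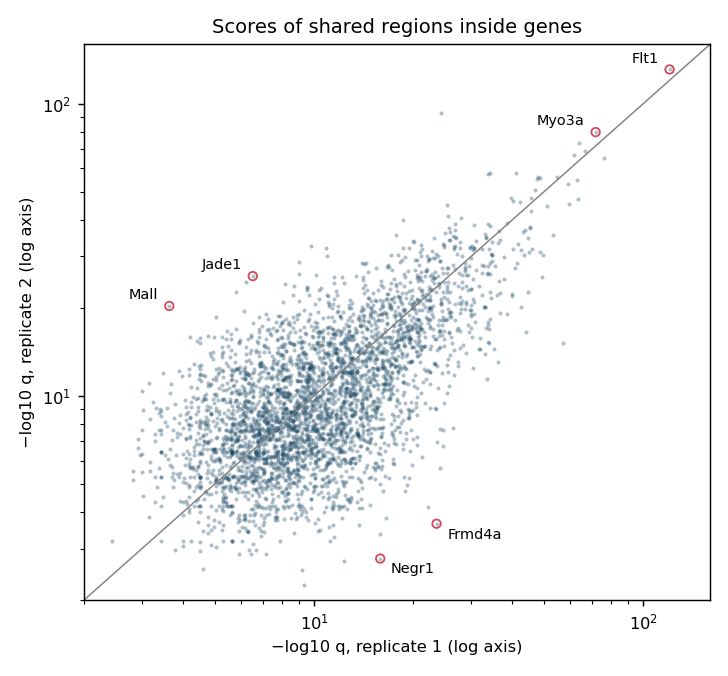
Score of each of the 3679 interior shared regions, as −log10 q in replicate 1 (horizontal) and replicate 2 (vertical), on log axes, with the line of equality. Flt1 and Myo3a stand at the upper end in both replicates. The 4 circled genes away from the line are the 2 regions in each direction whose scores differ most between replicates.

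The highest interior region lay in Flt1, whose product is a VEGF receptor, at chr5:147611418-147611448. Its scores were 120 and 131, and it lay 69.8% of the way along the gene. The next lay in Myo3a, an unconventional myosin, at chr2:22589647-22589651, with 71.7 and 79.9, and in Chl1, a neural cell adhesion molecule, at chr6:103649193-103649202, with 66.5 and 68.9. In all 3 both replicates gave scores far above the median and close to each other. Antxr1, a collagen-binding receptor for anthrax toxin, held 2 of the 12 best-ranked regions. One of them, at chr6:87295106-87295107, scored 76.2 and 65.2, and the other, at chr6:87183248-87183250, scored 54.5 and 56.3. The gene held 4 further interior regions, with scores between 6.81 and 15.6 over both replicates.

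The other 7 of these 12 regions lay in Sh3bgrl2, Zcwpw2, Dab2ip, Rtp4, Zzef1, Ggta1 and Slc35d2. The region in Sh3bgrl2 scored 63.7 and 73.2, and that in the PWWP-domain gene Zcwpw2 scored 61.5 and 66.8. The region in Dab2ip, a Ras GTPase-activating protein, scored 62.7 and 55.0 and lay 18.4% along the gene. That in Rtp4, a receptor transporter induced by interferon, scored 59.0 and 52.9. Their order differed between replicates. The region in Zzef1 scored 48.5 and 55.5, that in Ggta1, a galactosyltransferase, 47.8 and 56.1, and that in Slc35d2, a nucleotide sugar transporter, 47.5 and 55.4. All 12 thus scored at least 47.5 in both replicates. None of the 12 lay within 1 kb of an annotated internal start, and they lay between 9.62 and 83.8 kb from the nearest gene end.

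A few regions differed strongly between replicates. In Frmd4a, a scaffold protein of epithelial polarity, one region scored 23.6 in replicate 1 and 3.65 in replicate 2. In Negr1, a neuronal adhesion protein, one scored 15.9 and 2.77. The opposite order was found in Mall, a proteolipid of membrane rafts, with 3.63 in replicate 1 and 20.3 in replicate 2, and in Jade1, a chromatin-binding protein of histone acetylation complexes, with 6.52 and 25.7. These are the 2 extremes in each direction of a distribution centred near equality, with a median log2 ratio of replicate 2 to replicate 1 of −0.06.

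The interior regions fell in 2437 host genes, or 12.7% of the 19142 protein-coding genes with interior. Most hosts, 1718, held 1 region. A further 447 held 2, 139 held 3, 68 held 4, 29 held 5 and 36 held 6 or more. Genes with at least 2 regions held 1978 of the 3679, or 53.8%. Hosts had a median length of 81.0 kb, against 18.05 kb for genes with interior but no region. Between neighbouring regions of a gene the median gap was 27.7 kb, and 296 of 1262 gaps (23.5%) were 10 kb or shorter. Of genes with a shared region within 1 kb of one of their ends, 13.1% of 1863 held an interior region, against 12.7% of 17279 genes without one. Their interiors held 4.52 and 3.63 regions per Mb. By length class, the shares differed most in genes of 200 to 500 kb, at 67.3% of 52 genes and 47.0% of 711. They differed less in the classes from 20 to 200 kb, with 25.7% and 23.5% at 50 to 100 kb. Genes of 500 kb or more had 57.1% of 7 and 55.5% of 220, with the opposite order in density, at 1.34 and 1.88 per Mb. In genes under 20 kb the order of the shares was the opposite, at 2.58% and 2.94%.

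Rad51b held the most interior regions, 15, with scores between 5.28 and 18.98 in replicate 1 and between 4.04 and 20.6 in replicate 2. They were spread over 465 kb of the gene with a median gap of 15.5 kb. Stard13, a GTPase-activating protein that spans 391 kb, held 10, with medians of 17.9 in replicate 1 and 9.46 in replicate 2. Replicate 1 was higher in most regions of this gene, the best of which, at 66.0% along the gene, scored 27.7 and 19.2. Aopep, an aminopeptidase, Arhgap26, another GTPase-activating protein, and Pde4d, a cyclic AMP phosphodiesterase, held 9 each. Their interiors differ in size, so that the densities were 25.2, 11.8 and 6.92 per Mb.

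The next genes held 8 or 7. Zfp827, a zinc finger protein, held 8 in 166 kb, which is 48.7 per Mb, and its best region scored 30.7 and 21.0. Camk2d, a calcium and calmodulin-dependent kinase, held 8 at 32.1 per Mb, of which 3 lay between 40.03% and 41.3% of the way along the gene. In Dnm3, a dynamin, Inpp4b, a phosphoinositide phosphatase, Lama2 and Fhit the 8 regions were spread over 386 to 1051 kb. In contrast, the 7 regions of Pkp4, a plakophilin of cell junctions, all lay in the first 45.4% of the gene, and the best scored 63.3 and 47.3 at 26.6% along it and 45.3 and 37.5 at 45.4% along it. In Abcc4, an exporter of cyclic nucleotides and bile acids, the best of 7 scored 45.5 and 47.4 at 12.9% along the gene. In Nos1ap, an adaptor of nitric oxide synthase, the best of 7 scored 38.6 and 39.0 at 12.8% along it.

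**Figure D4:**
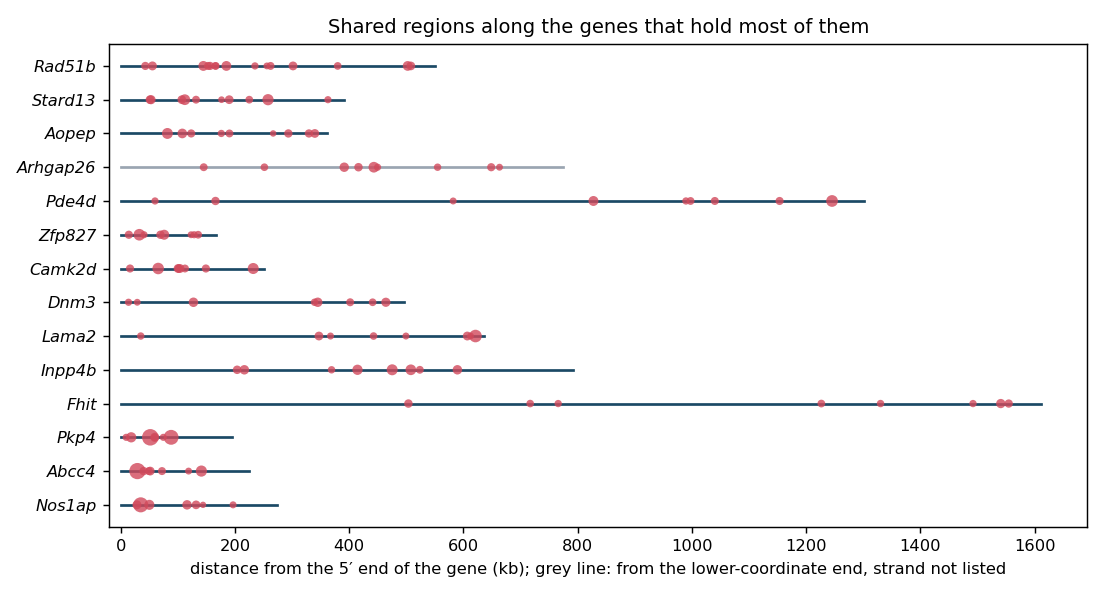
Positions of interior shared regions along 14 of the genes that hold most of them, in kb from the 5′ end (grey line, from the end with the lower coordinate where no strand was listed). Each point is 1 region and its area grows with the lower of the scores of the replicates; the 7 regions of Pkp4 lie in the first 45.4% of the gene, while those of Fhit span 1051 kb.

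A ranking of hosts by density favours short genes, in which 3 regions already give a high value. As a class, genes of 20 to 50 kb held 4.15 regions per Mb, below the 4.73 of genes of 100 to 200 kb. Among genes with at least 3 interior regions, Rasgef1b, a guanine nucleotide exchange factor of the Ras family, had the highest density, with 4 regions in 35.5 kb or 119 per Mb. Their scores were 14.6, 17.3, 13.5 and 20.9 in replicate 1 and 8.52, 27.0, 15.1 and 15.5 in replicate 2, so that each was found well above the threshold in both. Cab39, a scaffold of the kinase LKB1, held 5 at 89.1 per Mb, with scores from 6.79 to 11.9 in replicate 1 and from 4.24 to 15.9 in replicate 2. Ephx2, the soluble epoxide hydrolase, held 3 at 78.6 per Mb, and its scores were higher, at 19.4, 12.3 and 24.7 in replicate 1 and 22.8, 7.87 and 33.0 in replicate 2. Ppp3r1, a calcineurin subunit, followed with 76.8 per Mb and Tcp11l1 with 69.9 per Mb. Lmnb1 had 68.8 per Mb, Cflar, an inhibitor of caspase activation, 65.8, and Pfdn1, a subunit of prefoldin, 61.5. In Rasgef1b, Cab39, Tcp11l1, Lmnb1 and Cflar each replicate had as many summits as there were shared regions, so that no interior summit stood alone.

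Gene lists were compared by their regions per Mb, which over all genes was 3.70 when sequence shared by overlapping genes counts for each gene. Since density depends on gene length, each list's count was also divided by the count that its genes would hold at the density of all genes in their length class. Of 12 lists, 10 were above 1 by this ratio and 2 were below, for shared regions and for each replicate singly. The lists were made with earlier results of these data known, so these ratios describe the lists and are not independent support. The median length of the listed genes differed widely, from 17.0 kb for plasma proteins to 906 kb for synaptic genes, against 17.3 kb for all genes. Below, a list's share of genes is at times set beside the class of its median length. Lists also hold genes longer than their median, in which regions are more often present. Only the ratio takes the length class of each gene into account.

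Among hepatocyte lists, 7 of 37 plasma protein genes held an interior region, or 18.9% against 12.7% of all genes, with 10 regions at 12.7 per Mb. The ratio to genes of the same length class was 3.003 for shared regions, and 1.98 and 1.55 for the replicates singly. The value rests on only 0.785 Mb of interior. F5, coagulation factor V, held 3 of the 10 regions, and they scored 22.4, 6.32 and 7.07 in replicate 1 and 23.6, 3.43 and 6.07 in replicate 2, with 1 strong region and 2 weaker ones in both. The single region of Apoh, a phospholipid-binding glycoprotein, scored 16.6 and 21.4 and lay 1.15 kb from the 5′ end, just past the 1 kb limit. That of Cp, the copper carrier ceruloplasmin, scored 18.02 and 14.9, and the better of 2 in Itih2, a hyaluronan-binding inhibitor chain, scored 11.2 and 15.7.

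Hepatocyte transcription factors had 8 of 27 genes with a region (29.6%) and a ratio of 1.40 (1.51 and 1.57 singly). Of all genes of 50 to 100 kb, the class of this list's median length, 23.7% held one. The list's density of 3.96 per Mb was close to that of all genes, and with summits joined within 50 bp it fell to 0.888 of it. The best region of Nr1h4, the bile acid receptor, scored 15.97 and 14.998 and lay 6.42 kb from the 5′ end. Nr1i2, the pregnane X receptor, held 1 at 15.2 and 13.2, and Thrb, a thyroid hormone receptor, held 3, the best at 14.4 and 15.7. The other regions of Nr1h4 and Thrb scored lower, down to 6.12 in replicate 1 for Nr1h4 and to 5.44 in replicate 2 for Thrb. The best of 3 in Rora, another nuclear receptor, scored 10.4 and 16.6. For metabolism and transport 10 of 49 genes (20.4%) held a region, with a ratio of 1.46 (1.40 and 1.33 singly). Genes of 20 to 50 kb, the class of that list's median length, had a share of 10.8%. Abcb1a, a drug efflux pump, held 3, and the best scored 21.4 and 20.6. Lipc, hepatic lipase, scored 17.8 and 15.3, Scp2, a sterol carrier, 16.9 and 13.4, and Slco2b1, an organic anion transporter, 10.0 and 10.3.

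The actin list had the most hosts. Of 59 genes of the actin cytoskeleton and focal adhesions, 33 (55.9%) held an interior region, against 12.7% of all genes and 37.3% of genes of 100 to 200 kb, the class of this list's median length. They held 84 regions at 8.80 per Mb, with a ratio of 2.39 (2.09 and 1.98 singly). Lmo7, an actin-binding junction protein, held 5, the best at 44.8 and 31.1. Actn4, an actinin, held 2, the best at 29.7 and 32.4, while Lasp1, an actin-binding protein of focal adhesions, had 32.9 and 27.8, and Fermt1, an integrin activator, had 27.3 and 23.7. In genes of epithelial junctions and polarity the share was 16 of 42 (38.1%), against 10.8% of genes of 20 to 50 kb. That list's median length falls in this class, but it includes far longer genes, such as Magi1 with 608 kb. The 2 shares are therefore not matched for length. By length class of each gene the ratio was 1.79 (1.73 and 1.89 singly). Besides Pkp4, the 16 genes included Cdh1, the epithelial cadherin, with 19.02 and 21.6. Magi1, a tight junction scaffold, had 17.1 and 12.8, and F11r, a junctional adhesion molecule, had 15.6 and 12.3.

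**Figure D5:**
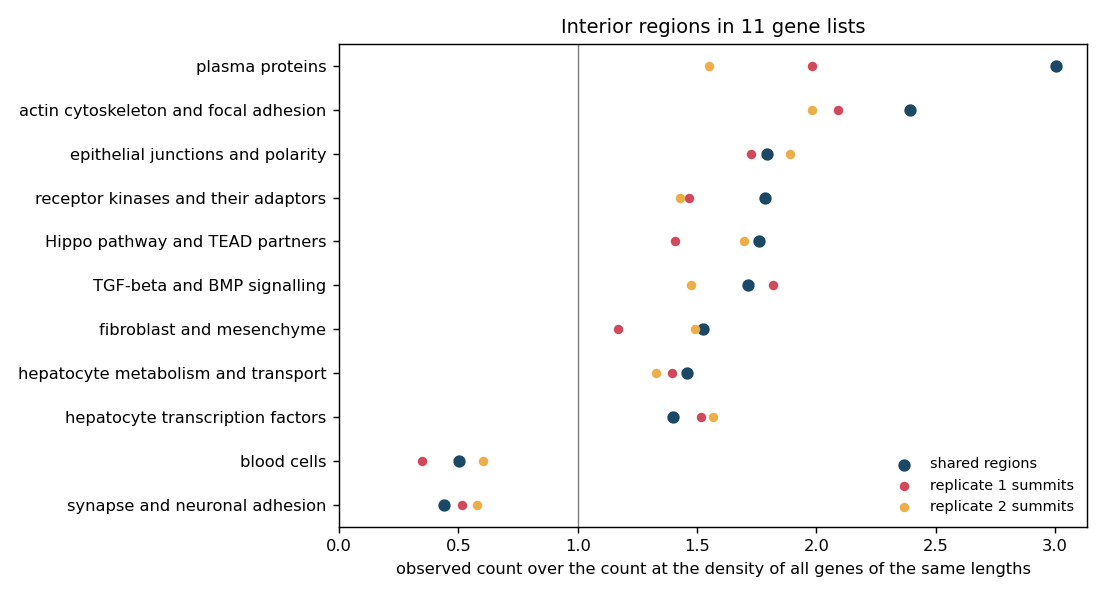
Interior shared regions (dark) and summits of each replicate in 11 gene lists. Values are the observed count over the count at the density of all genes in the same length classes. The line marks 1. Plasma proteins (3.003) and actin cytoskeleton genes (2.39) are highest for shared regions, and the blood cell and synapse lists are below 1 in both replicates.

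Signalling lists had ratios from 1.71 to 1.78. The median length of each of these lists lay between 50 and 100 kb, and 23.7% of all genes of that class held a region. Of 43 receptor kinases and adaptors 17 (39.5%) held a region, at a ratio of 1.78 (1.47 and 1.43 singly). Apart from Flt1 they included Sorbs2, an adaptor of the actin skeleton with 5 regions, the best at 40.1 and 31.9, and Axl, a receptor kinase for Gas6, with 26.4 and 28.1. Egfr, the receptor for the epidermal growth factor in the medium, held 2 regions, at 18.3 and 18.2 and at 3.99 and 6.34. The TGF-beta and BMP list had 12 of 39 genes (30.8%) and a ratio of 1.71 (1.82 and 1.47 singly). Its best regions lay in Hipk2, a nuclear kinase, with 25.7 and 37.7, in the ligand gene Bmp6, with 21.2 and 14.3, and in the receptor genes Bmpr1b, with 14.1 and 18.3, and Tgfbr2, with 13.2 and 12.5. The Hippo list had 12 of 35 genes (34.3%) and a ratio of 1.76 (1.41 and 1.70 singly). Axl belongs to that list too, and the other leading regions lay in Ajuba, a LIM adaptor, with 18.7 and 32.0, Vgll4, a TEAD cofactor, with 17.6 and 18.6, and the phosphatase gene Ptpn14, with 16.2 and 13.1.

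Genes of other cell types were divided. Of 42 fibroblast and mesenchymal genes, 12 (28.6%) held an interior region, at a ratio of 1.52 (1.17 and 1.49 singly). Among all genes of 20 to 50 kb, the class of that list's median length, 10.8% held one. The list also includes longer genes, such as Fbn2 with 202 kb, so these shares are not matched for length. Col15a1, a basement membrane collagen, held 3, the best at 36.7 and 34.1. Fbn2, a fibrillin, had 18.2 and 17.6, Vcan, the proteoglycan versican, 17.5 and 17.4, and Col12a1, another collagen, 16.2 and 23.6. Each is the best region of its gene, and Col15a1 also held one at 7.49 and 12.3. Of 35 blood cell genes, 4 held a region, with a ratio of 0.500 (0.349 and 0.603 singly), which rests on 6 regions. Their share of genes, 11.4%, was close to the 12.7% of all genes. The regions lay in Themis, Skap1, Prkcb and Ptpn22, and the highest score among them was 14.4, in replicate 1 at a region of Themis that scored 8.38 in replicate 2. Of 74 synaptic and neuronal adhesion genes 30 (40.5%) held a region, against 55.5% of genes of 500 kb or more. With 61 regions in 70.5 Mb the density was 0.865 per Mb and the ratio 0.439 (0.515 and 0.576 singly). That ratio treats all genes of 500 kb or more as 1 class. The list's median length was 906 kb, and genes of 1 Mb or longer held 1.05 regions per Mb. The part of length within this class in the ratio was not tested. The listed genes with the highest regions were Dpp6, a subunit of neuronal potassium channels, with 41.2 and 28.5, Macrod2, a macro-domain hydrolase, with 24.7 and 32.8, Cntnap2, and Dlgap1, a postsynaptic scaffold, with 19.8 and 20.6.

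Neither gene of the introduced factors held an interior region. In Hnf4a, replicate 1 had 4 interior summits, with scores of 12.4, 7.38, 3.43 and 6.08, and replicate 2 had none. Whether these came from the endogenous gene or the introduced vector cannot be told from summit lists. Foxa2 has only 2.09 kb of interior, and no summit of either replicate lay there. Chromosome X was sparse, with 1.39 interior regions per Mb against 3.25 to 4.30 on the 19 autosomes. Both replicates had the fewest summits per Mb there, with 4.30 and 4.23 on X and autosomal minima of 8.20 and 9.47. Of 559 microRNA hairpins inside genes, 2 lay within 1 kb of an interior region, namely Mir5620 in Clcn4 and Mir181a-2 in Nr6a1. All gene interior held 3.73 regions per Mb. The count was not compared with that density, so it is no result about microRNAs.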

How the data were processed

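Hnf4a ChIL-seq of 2 iHepC samples was used. The submitters' processing notes list HISAT2 2.0.5, fastp 0.23.4, the caller MACS2 2.2.9.1 and build mm10. The deposited lists hold 1-bp summits called in each sample with the authors' −log10 q-value (21283 and 24097 summits, lowest 2.04 and 2.01); use of a control, duplicates and depth are not given in the sources used here. Scores only describe and rank regions.

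Genes are the RefSeq protein-coding genes of GRCm38.p6, the assembly of mm10. Densities are counts divided by the whole gene interior. Only the sequence spanned by the summits was taken between the first and last summit of each chromosome. Strand and starts came from the RefSeq start table. All entries of the gene lists matched, 1 through an older name. Regions and summits are not replicates, and with 1 group no test was run. Members and lists were chosen with earlier results of these data known. The analysis of internal starts, the motif search in start windows, the GC and CCAAT boxes, the standard for gene length and the summary measures were chosen after seeing the data. The planned motif search around midpoints needs a genome and was not run.

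Named regions are the 12 with the best rank in the replicate where they ranked lower; the best of up to 4 genes per list; those nearest the 1 kb limit (2 each side); the 3 farthest from gene ends; and the 2 differing most between replicates each way. Named genes are the 15 with most regions (ties by density), the 8 densest with at least 3, Hnf4a and Foxa2. The values of 1 of these genes and of 1 of the 12 lists are not reported here. The longest genes without a region, Egfr's second region, genes at starts and microRNAs were named outside this rule, after their values were seen. Alternatives covered other joining distances, scores, limits and single replicates. Scripts (Python 3.11.15, numpy 2.4.6, pandas 2.3.3, scipy 1.17.1, matplotlib 3.10.9) were tested on simulated data.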

Additional observations from a re-analysis of the deposited data

How the results depend on the processing

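With a limit of 2 kb or 5 kb from gene ends in place of 1 kb, the share of shared regions inside genes was 37.8% or 33.97% in place of 40.1%. With a replicate left out, here and below, every single summit of the other is measured in place of shared regions. The share of those summits was 41.3% to 41.9%. The density in genes of 500 kb or more over that of all interior was 0.501, and it was 0.491 for summits of −log10 q 5 or more, 0.513 and 0.518 at limits of 2 and 5 kb, and 0.524 to 0.536 without a replicate. For interior over 100 kb from gene ends the same ratio was 0.610, and it was 0.597 with summits joined within 50 bp, 0.602 for −log10 q 5 or more, 0.621 and 0.622 at limits of 2 and 5 kb, and 0.622 to 0.632 without a replicate. The ratio of density on the 5′ to the 3′ side was 1.27, and it was 1.21 and 1.12 at limits of 2 and 5 kb and 1.19 to 1.24 without a replicate. The mean of the replicates' median scores was 9.59, and it was 10.5 for −log10 q 5 or more and 6.43 to 7.07 without a replicate, when every interior summit of the other counts. Host genes numbered 2437, and 4611 to 5051 without a replicate, since summits then need no partner. Of the 12 lists, 10 lay above the density of all genes in each alternative except joining within 50 bp, where it was 9 because hepatocyte transcription factors fell to 0.888 of it. The density within 250 bp of internal starts over that of all interior was 12.3 and ranged from 8.98 to 12.8.

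No paired analysis was possible because there is 1 group and no result comes from a test. The density 1 to 2 kb from gene ends has no value at limits of 2 and 5 kb, and the correlation of scores has none with 1 replicate. Depth is unknown, so summits missed for lack of reads cannot be told from sites without Hnf4a. Both libraries carry 1 lot number, and whether separate reprogramming experiments gave rise to them is unknown here. The start table gives a strand for 79.9% of genes.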
